A study of Homo sapiens with 8 samples.

Results

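The fast-losing tiles described here are 4531 autosomal 1-kb tiles of the hg19 genome whose methylation on day 6 of DNMT1* withdrawal stood at 0.15 or less of the level on day 0. They were taken from 101499 eligible tiles, which had 3 or more CpGs with 10 or more reads in each of the libraries of days 0, 1, 2, 6 and 7, at least 80% of reads methylated on days 0 and 1 pooled, and 100 or more reads on day 6. The eligible tiles were in turn part of 263521 tiles with 3 or more such CpGs. The level of a tile is the percentage of methylated reads over its covered CpGs, so a CpG with more reads weighs more. Each read is counted once at every CpG it covers, and these counts are called read calls.

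The DNA came from the established line HUES64, human embryonic stem cells, in a derivative labelled as a DNMT1 knockout. All 8 libraries share this genotype and differ in the day of DNMT1* withdrawal, from day 0 to day 7, with 1 library per day and no replicates. CpG methylation was read by reduced representation bisulfite sequencing (RRBS), in which DNA is cut at MspI sites and CpG-rich fragments are favoured. The labels do not say whether the line is a single clone, and the identity of the cells cannot be checked from methylation calls.

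Methylation of CpGs is symmetrical on the DNA strands, and each round of replication leaves the new strand unmethylated. DNMT1 copies the mark onto that strand, and DNMT1* is an exogenous copy of the enzyme that keeps a line without its own DNMT1 methylated until it is withdrawn. Without maintenance the mark is diluted with every division, while de novo methyltransferases, which are active in embryonic stem cells, can add new methyl groups. How much of the mark a region keeps after some days therefore depends, among other things, on divisions, on remaining maintenance and on new methylation at that place. None of these was measured here.

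Days 0, 1, 2, 6 and 7 were read deeply, at 77691782 to 161534152 read calls per library and a median coverage of 21 to 44 reads per listed CpG. Days 3, 4 and 5 were shallow, at 12359218 to 15156251 read calls and a median coverage of 4. The fast-losing tiles had a median of 217 read calls on day 6 (5th to 95th percentile 111 to 843) and 206 on day 7, but only 63 over days 3, 4 and 5 together, and 13 to 23 of them had no read on a given one of those days. Intervals given for levels are Wilson 95% intervals and cover counting error only. The labels name no molecular identifiers, so several reads can come from the same molecule, and calls made on the same read are not independent.

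The values that chose the tiles come first, as a description. On day 0 the fast-losing tiles had a median level of 86.0% (5th to 95th percentile 80.9 to 92.2%), against 86.7% (81.0 to 92.8%) in the 96968 other eligible tiles. The median on day 1 was 81.1% against 82.5%. On day 6 the fast-losing tiles stood at a median of 11.4% and the others at 21.8%, so that the former kept a median of 13.3% of the day 0 level and the latter 25.3%. By choice no fast-losing tile kept more than 15%, and the 5th percentile was 8.77%. The chosen tiles are 4.46% of the eligible ones.

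The limit runs through a continuous distribution. Just inside it lay the tiles at chromosome 2: 172707001 to 172708000, chromosome 6: 34512001 to 34513000 and chromosome 7: 50450001 to 50451000, with 12.9%, 13.6% and 12.6% methylated on day 6 and 21.4%, 15.6% and 14.2% on day 7. Just outside lay chromosome 20: 61766001 to 61767000, chromosome 3: 183149001 to 183150000 and chromosome 11: 1218001 to 1219000, with 12.6%, 13.6% and 12.6% on day 6 and 11.1%, 26.3% and 9.35% on day 7. The 3 tiles inside the limit and the 3 outside it overlapped on both days. Of the 4531 tiles, 2907 kept between 12.5 and 15% of the day 0 level, 1177 between 10 and 12.5%, 343 between 7.5 and 10%, 80 between 5 and 7.5% and 24 at most 5%.

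On the days whose levels did not enter the choice the fast-losing tiles were lower than the other eligible tiles. The 2 distributions overlapped on each of these days. On day 2 their median was 69.2% (5th to 95th percentile 59.3 to 79.1%) against 72.6% (63.3 to 81.4%). Over the pooled reads of days 3, 4 and 5 it was 34.6% (18.4 to 52.4%) against 40.6% (25 to 57.6%). On day 7 it was 12.8% (7.18 to 21.1%) against 18.2% (10.9 to 29.2%). The gap in medians was thus small on day 2 and wider later, although the level itself had fallen.

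Read over all calls, the fast-losing tiles read 85.8%, 81.0%, 69.6%, 46.8%, 30.8%, 23.8%, 11.2% and 12.4% from day 0 to day 7. The other eligible tiles read 86.7%, 82.7%, 73.2%, 52.7%, 37.5%, 31.0%, 22.3% and 18.4%. On day 3 the fast-losing tiles kept 67.2% of the level of the day before and the others 72%, and on day 4 they kept 65.9% against 71.2%. On day 5 the shares were 77.2% and 82.6%. Days 3, 4 and 5 took no part in the choice, and the share kept was lower in the fast-losing tiles on each of them. The step into day 6, which the rule used, kept 47.0% against 71.9%, and from day 6 to day 7 the level of the fast-losing tiles rose to 110.9% of the day before while the others kept 82.7%.

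**Figure D1:**
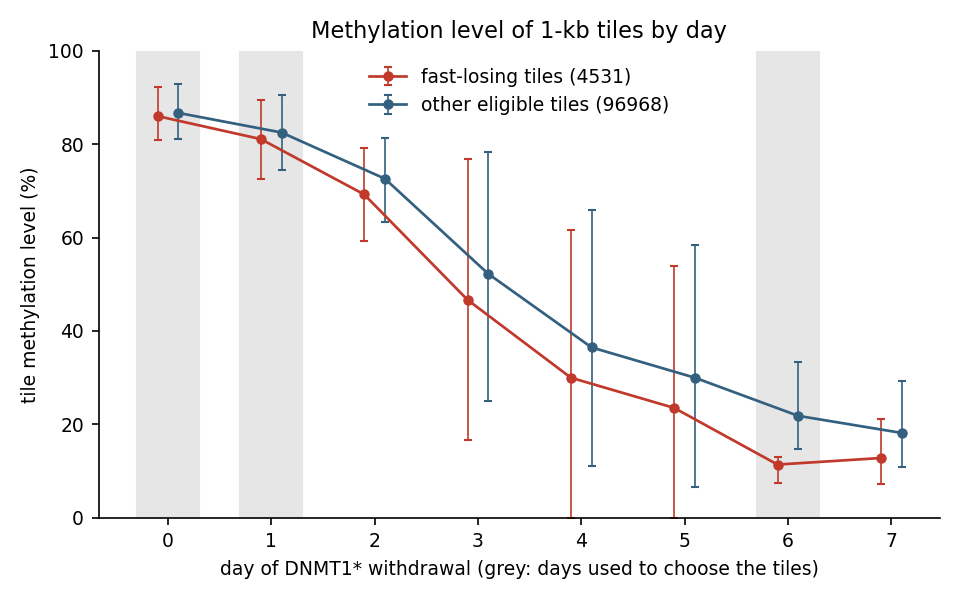
Methylation level of 1-kb tiles (y axis, percent) by day of withdrawal (x axis), for the 4531 fast-losing tiles and the 96968 other eligible tiles. Points are medians over tiles and bars run from the 5th to the 95th percentile, with days that chose the tiles in grey. The fast-losing tiles have the lower median on days 2 to 5 and on day 7, and only on day 7 does their median fail to fall below that of the day before.

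Most fast-losing tiles, and not only their median, were lower on these days. Of the fast-losing tiles, 3228 (71.2%) lay below the day 2 median of all eligible tiles, which was 72.5%, where 50% of the eligible tiles lie by construction. Over days 3, 4 and 5 pooled, 3239 of 4530 with a read (71.5%) lay below the median of 40.4%, again against a background of 50%. On day 7, 3926 (86.6%) lay below the median of 18%, against 50%. All 3 held at once in 2195 tiles (48.5%), against 20% of the eligible tiles. On day 1, whose reads entered the starting class, 59.9% lay below the median, against a background of 49.9%.

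By counting error alone, the day 7 level was separated from that median in part of the tiles only. The Wilson intervals used here leave out spread beyond counting error, which grows relative to counting error with read number. They are therefore too narrow, most of all in deep tiles. In 2280 fast-losing tiles (50.3%) the Wilson 95% interval of day 7 ended below the median of all eligible tiles, against 17.5% of the eligible tiles. In 68 (1.5%) it began above the median, against 21.5%. On day 7 1169 fast-losing tiles (25.8%) were below the 5th percentile of the eligible tiles, against 5%, and 39 (0.861%) were above the 90th percentile, against 10%.

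The limit of 0.15 itself was met again on day 7 by 2320 of the 4531 tiles (51.2%), against 13.9% of all eligible tiles. Both ratios share the day 0 library. The level on day 7 was above that on day 6 in 3098 fast-losing tiles (68.4%), against 22.3% of the eligible tiles, and day 6 is the day on which the tiles were chosen for being low. The median tile stood on day 7 at 116.7% of its day 6 level, where the other eligible tiles stood at 82.9%. Days 2 and 7 entered the rule by their coverage only. For a measure that shares no methylation level with the rule, day 7 was set against day 2. The fast-losing tiles kept a median of 18.5% of the day 2 level (5th to 95th percentile 10.4 to 30.4%) and the others 25.2% (15.4 to 39.3%), and 3782 (83.5%) were below the median of all eligible tiles, against a background of 50%.

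The share kept from day 2 to day 7 followed the share kept on day 6 in small steps and levelled off among the lowest tiles. It was 19.1% in tiles that had kept 12.5 to 15% on day 6, 18% at 10 to 12.5%, 17.0% at 7.5 to 10%, 17.0% at 5 to 7.5% and 16.8% at 5% or less. Above the limit it was 19.9% in the 6218 tiles at 15 to 17.5%, 21.3% at 17.5 to 20% and 31.0% above 30%. The quartiles of neighbouring classes overlapped throughout. The 24 tiles with the lowest day 6 levels, at a median of 3.53%, had a median of 11.3% on day 7, close to the 11.5% of the tiles that had stood at 7.81% on day 6.

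**Figure D2:**
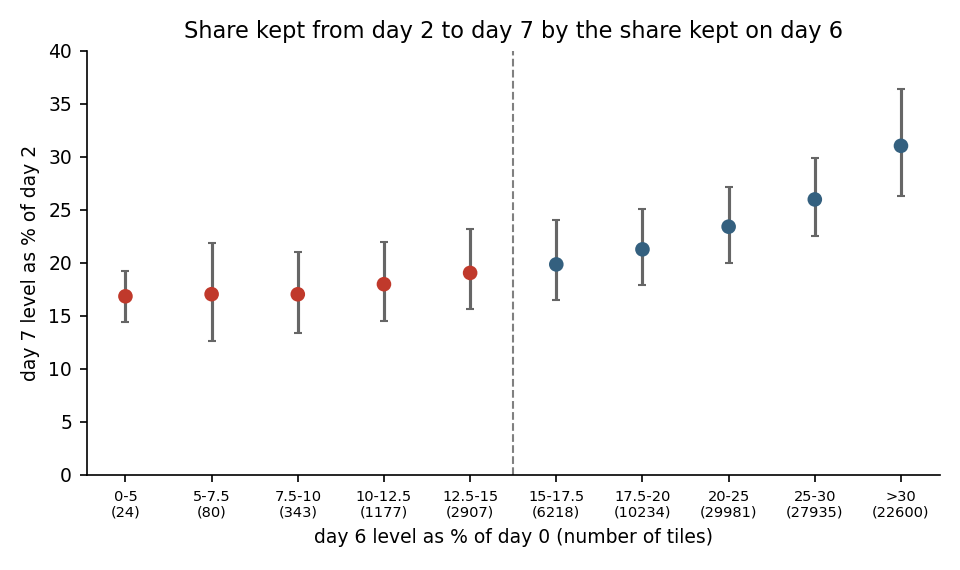
Day 7 level as a percentage of the day 2 level (y axis) in classes of the day 6 level as a percentage of day 0 (x axis, with the number of tiles). Points are medians and bars quartiles over tiles, and the dashed line is the limit of the rule. The medians run from 16.8% in the lowest class to 31.0% in the highest, with no step at the limit.

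The 5 tiles with the lowest share kept on day 6 were all higher again on day 7. The tile at chromosome 22: 22900001 to 22901000 had 1 methylated of 111 read calls on day 6 (0.901%), after 73 of 85 on day 0, 60 of 71 on day 1 and 88 of 131 on day 2, and 15 of 138 (10.9%) on day 7. Its day 3 level was 24 of 27, its day 4 level 5 of 5, and day 5 read 0 of 12, which allows up to 25%. The levels of days 3, 4 and 5 rested on few reads, and day 7 was higher than day 6.

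Another tile, at chromosome 17: 40937001 to 40938000, had 8 of 296 calls methylated on day 6 (2.70%) and 55 of 296 on day 7 (18.6%), near the median of the eligible tiles. Before that it had read 91.4%, 90.2%, 76.8%, 56.8%, 37.8% and 11.7% from day 0 to day 5. On chromosome 13 the tile at 114071001 to 114072000 read 2.52% on day 6 and 12.7% on day 7, the one at chromosome 16: 87226001 to 87227000 read 2.59% and 7.79%, and the one at chromosome 7: 120968001 to 120969000 read 3.08% and 14.7%. Of the 5, only the chromosome 16 tile was still below 10% on day 7. They had 3 to 6 covered CpGs and 111 to 296 read calls on day 6.

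At the other end were the 5 fast-losing tiles with the highest levels on day 7. The highest, at chromosome 9: 94089001 to 94090000, had 102 of 120 calls methylated on day 0, 59 of 67 on day 1, 121 of 128 on day 2, 13 of 107 (12.1%) on day 6 and 54 of 120 (45.0%) on day 7. Days 3 and 4 read 8 of 8 and 4 of 15, and day 5 had no read. On chromosome 4 the tile at 53307001 to 53308000 read 12% on day 6 and 34.4% on day 7. On chromosome 8 the one at 12529001 to 12530000 read 10.7% and 34%. On chromosome 3 the one at 53781001 to 53782000 read 12.6% and 33.3%, and on chromosome 5 the one at 142484001 to 142485000 read 9.48% and 32.8%. The chromosome 5 tile had also been high on days 3, 4 and 5 pooled, at 80%, so that day 6 was its low day. These 5 tiles held 3 to 5 covered CpGs and 100 to 131 read calls on day 6.

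The tiles differed by read depth. Tiles with few reads were chosen more often: 1062 of 13981 eligible tiles with 100 to under 150 calls on day 6 (7.60%) were fast-losing, 1224 of 24585 (4.98%) with 200 to under 300, 410 of 17567 (2.33%) with 500 to under 1000 and 172 of 6236 (2.76%) with 1000 or more. The day 7 level behaved the other way round. Of the fast-losing tiles with 100 to under 150 calls, 77.2% lay below the day 7 median of all eligible tiles, against 92.5% with 300 to under 500, 97.8% with 500 to under 1000 and 100% of the 172 with 1000 or more. Among all eligible tiles of these 4 depth classes the share was 50%, 49.0%, 49.3% and 56.2%. The limit of 0.15 was met again on day 7 by 42.7% of the fast-losing tiles with 100 to under 150 calls, where 18.3% of the eligible tiles met it, and by 88.4% of those with 1000 or more, where 13.9% did.

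**Figure D3:**
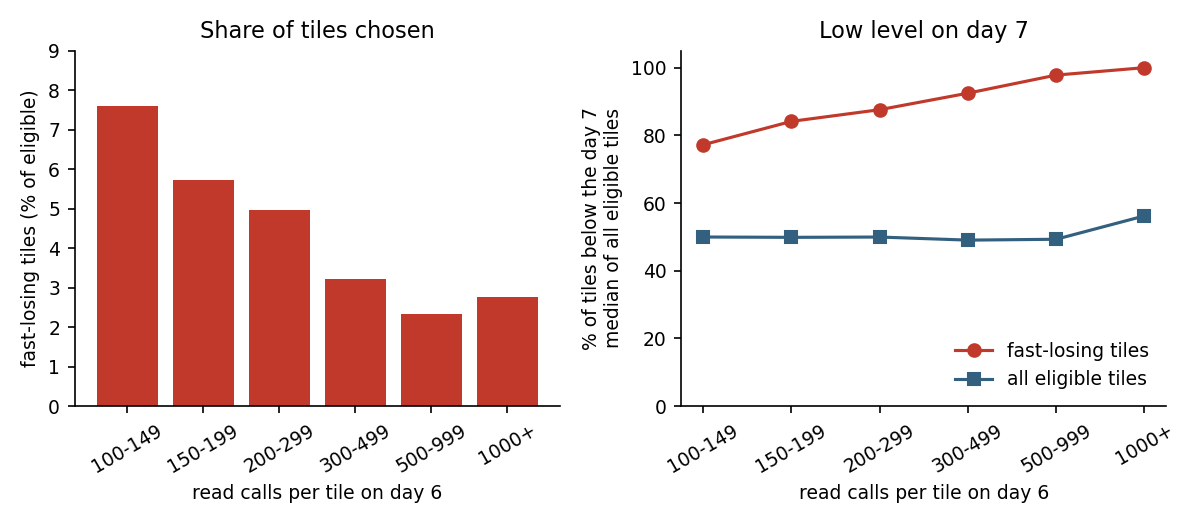
Left, fast-losing tiles as a percentage of eligible tiles, and right, the percentage of tiles below the day 7 median of all eligible tiles, both by the number of read calls per tile on day 6 (x axis). Bars and points are single values over all tiles of a class. The share chosen goes from 7.60% at the lowest depth to 2.76% at the highest, while the share low on day 7 goes from 77.2% to 100% in fast-losing tiles and stays between 49.0% and 56.2% in eligible tiles.

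The 172 deepest fast-losing tiles are those with the least counting error, though spread beyond counting error grows relative to it with read number. They lay on all 22 autosomes and had a median of 26.5 covered CpGs. Their lowest, median and highest levels were 78.2, 84.8 and 92.0% on day 0, 75.2, 81.2 and 88.1% on day 1, 61.4, 70.7 and 80.6% on day 2, and 10.1, 33.4 and 45.8% over days 3, 4 and 5 pooled. On day 6 they were 6.17, 11.8 and 13.5%, and on day 7 they were 4.89, 10.8 and 16.2%. In 117 of the 172 (68.0%) the level of day 7 was below that of day 6, a smaller share than the 94% of all 6236 eligible tiles of this depth. In 170 (98.8%) the whole Wilson interval of day 7 lay below the median of all eligible tiles, against 36.8% of the eligible tiles of this depth. On day 2, 109 (63.4%) were below the median of all eligible tiles, against 28.1%. The 6064 other eligible tiles of this depth had medians of 86.7% on day 0, 74.9% on day 2, 42.0% over days 3, 4 and 5, 21.7% on day 6 and 17.5% on day 7 (5th to 95th percentile 11.5 to 26.6%). The deepest fast-losing tiles overlapped with these on day 7.

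The number of covered CpGs is tied to depth, since each CpG adds read calls. The fast-losing tiles had a median of 4 covered CpGs and the eligible tiles 5, with 58.5 and 60.2 read calls per covered CpG on day 0. Of eligible tiles with 3 covered CpGs, 1718 of 25173 (6.82%) were fast-losing, against 3.47% with 5 to 9, 2.33% with 10 to 19, 2.88% with 20 to 39 and 3.14% with 40 or more. With 200 to under 500 calls on day 6 the share was 5.57% for 3 or 4 CpGs, 3.36% for 5 to 9 and 2.66% for 10 or more. With 100 to under 200 calls it was 6.69% for 3 or 4 and 5.91% for 5 to 9, and with 500 or more calls it was 5.26% for 3 or 4 (7 of 133 tiles), 2.33% for 5 to 9 and 2.46% for 10 or more. The part of depth and of CpG number in these shares was not tested.

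The lower levels were seen both in tiles with many CpGs and in tiles with few. With 40 or more covered CpGs the 26 fast-losing tiles had medians of 73.1% on day 2, 33.1% over days 3, 4 and 5 and 10.6% on day 7, where all 829 eligible tiles had 75.6%, 42.2% and 17.4%. With 3 covered CpGs the medians were 68.9%, 34.8% and 13.3% in fast-losing tiles and 71.9%, 39.7% and 17.8% in all eligible ones. The 3 fast-losing tiles with the most covered CpGs, 59 to 77, were at chromosome 2: 220313001 to 220314000, chromosome 22: 46457001 to 46458000 and chromosome 5: 180486001 to 180487000. They went from 84.7%, 87.8% and 84.6% on day 0 to 71.1%, 76.8% and 75.3% on day 2, and to 12.5%, 12.6% and 12.6% on day 6 and 10.7%, 10.2% and 11.6% on day 7. On day 2 the first was below the median of the eligible tiles and the others above it, and on day 7 all 3 were below.

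Most single CpGs of the fast-losing tiles were low as well. Of the 26649 covered CpGs in fast-losing tiles, 76.7% were below the day 7 median of all CpGs in eligible tiles, which was 17.0%, against 50% of all CpGs in eligible tiles. In 1516 tiles (33.5%) every covered CpG was below the day 7 median, against 8.53% of eligible tiles, and in 127 (2.80%) none was, against 8.90%. Such shares depend on the number of CpGs in a tile, which was lower in fast-losing tiles, and were not matched for it. CpGs of a tile often lie on the same reads, so they do not measure the tile independently.

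The share chosen differed by starting level. With 80 to 85% on days 0 and 1 pooled, 5.35% of eligible tiles were fast-losing, against 3.94% with 85 to 90% and 2.34% with 90 to 95%, and 7 of 148 tiles (4.73%) above that. In the first 3 classes the fast-losing tiles were lower on day 7 than eligible tiles of the same class, with medians of 12.3% against 16.8%, 13.4% against 18.8% and 15.4% against 22.6%. From day 2 to day 7 they kept 18.3% against 24.0%, 18.8% against 25.5% and 20.3% against 29.3%.

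A test was made of whether single tiles declined more steeply than the eligible tiles as a whole over days 2, 3, 4, 5 and 7. The rule did not use the levels of these days. The slope is in log odds per day relative to all eligible tiles and comes from a quasi-binomial fit per tile whose dispersions were shrunk with limma. It was negative in 3024 of the 4147 fast-losing tiles with enough reads (72.9%), against 48.6% of the 95594 tiles tested, and its median was -0.048 (quartiles -0.10 and 0.0050) against 0.0024. Without day 2 the slope was negative in 62.3%, against 49.7% of all tested, and without day 7 in 60.2%, against 50.6%. Leaving out day 3, 4 or 5 gave 72.4 to 72.8%. At an adjusted p below 0.05 the decline was steeper in 8 fast-losing tiles (0.193%), against 39 tiles or 0.0408% of all tested, and shallower in 0, against 69 or 0.0722%. At an unadjusted p below 0.05, 390 of the 4147 fast-losing tiles were steeper, against 3632 of the 95594 tested (3.8%). Shallower were 40 of the 4147, against 4739 of the 95594 (4.96%). limma on arcsine square-root levels called 56 of the 4147 steeper (1.35%), against 651 of all tested (0.681%), and 0 shallower, against 135 (0.141%). On simulated reads at the real depths the test found 54.3% of tiles made steeper by 0.4 per day, 6.67% of those made steeper by 0.2 and 0 of 48 made steeper by 0.1. The median difference of the fast-losing tiles was smaller than 0.1 and was thus not detectable for single tiles at this depth. The 8 calls depended on the setting. Without day 7 or with no moderation of the dispersion 0 were left, and 0 of all tested tiles were called. Without day 2, 1 was left, of 4 called among all tested.

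The 8 tiles include the deepest of the set. The tile at chromosome 15: 102520001 to 102521000, with 58 covered CpGs, had 5466 of 6448 calls methylated on day 0 (84.8%), 2958 of 3551 on day 1 (83.3%), 4921 of 6631 on day 2 (74.2%), 376 of 610, 226 of 610 and 138 of 644 on days 3, 4 and 5 (61.6%, 37.0% and 21.4%), 819 of 6668 on day 6 (12.3%) and 837 of 10592 on day 7 (7.90%, 7.40 to 8.43%). Its relative slope was -0.22 ± 0.04 (SE), and its adjusted p was 0.0061 in the limma-moderated quasi-binomial fit over 5 libraries. It was above the pooled level of all eligible tiles on days 1, 2 and 3 and below it on day 0 and from day 4 on.

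A second tile, at chromosome 1: 10001 to 11000, with 37 covered CpGs, followed a like course, with 4440 of 5291 calls methylated at the start (83.9%), then 78.4%, 72.6%, 54.6%, 30.5%, 18.6% and 11.9% through day 6, and 778 of 9609 (8.10%) at the end. Its slope was -0.20 ± 0.04 (SE; adjusted p = 0.018, same fit). These tiles hold the first listed CpGs of chromosome 1 and the last listed CpGs of chromosome 15. In reversed orientation 25 of the 43 CpGs listed in the chromosome 1 tile fell on CpGs of the chromosome 15 tile at a single offset, where the median over 14296 eligible tiles with 15 or more listed CpGs was 6 and the 99th percentile 11. They may therefore be copies of 1 sequence that share reads. The count of 8 includes both, although they may not be separate evidence. How the submitters treated reads that map to several places is not stated in the labels.

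The tile at chromosome 5: 180480001 to 180481000 fell from 1582 of 1777 calls on day 0 (89.0%) and 74.1% on day 2 to 51.7%, 16.3% and 13.8% on days 3, 4 and 5, 10.2% on day 6 and 94 of 1517 (6.20%) on day 7, with a slope of -0.29 ± 0.06 (SE; adjusted p = 0.016, same fit). It lay 6 kb from the chromosome 5 tile with 59 covered CpGs. On chromosome 19 the tile at 2494001 to 2495000 was already at 35.8% on day 3, 24.7% on day 4 and 4.65% on day 5, with 8.29% on day 6 and 4.89% on day 7 (slope -0.28 ± 0.07). On chromosome 9 the tile at 36739001 to 36740000 read 72.1% on day 2, 8.64% on day 6 and 6.39% on day 7 (slope -0.21 ± 0.05). On chromosome 22 the tiles at 46285001 to 46286000 and 46457001 to 46458000 read 74.4% and 76.8% on day 2, 11.5% and 12.6% on day 6 and 4.76% and 10.2% on day 7 (slopes -0.30 ± 0.07 and -0.19 ± 0.04).

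The last of the 8, at chromosome 16: 46823001 to 46824000, had 5 covered CpGs and 187 calls on day 6. It read 89.1%, 78.7% and 95.6% on days 0, 1 and 2, 61.3%, 40% and 25% on days 3, 4 and 5, 11.2% on day 6 and 6.01% on day 7 (slope -0.61 ± 0.13; adjusted p = 0.025, same fit). Its level on day 2 was above that on day 0, as in 14 of the 4531 fast-losing tiles (0.309%, against 0.279% of eligible tiles).

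**Figure D4:**
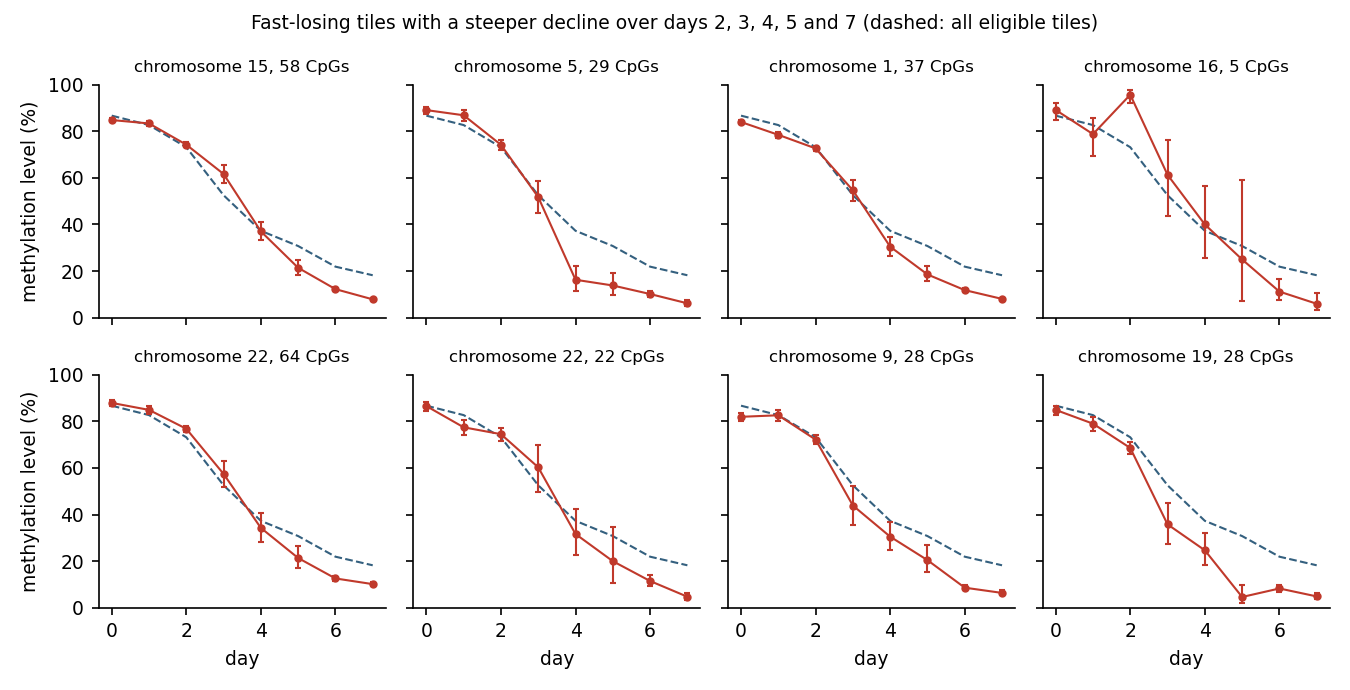
Methylation level (y axis, percent) by day (x axis) of the 8 fast-losing tiles whose decline over days 2, 3, 4, 5 and 7 was steeper than that of all eligible tiles. Points are 1 library each with Wilson 95% intervals, and the dashed line is the pooled level of all eligible tiles. All 8 lie below the dashed line on day 7, at 4.76 to 10.2%, whereas on day 2 they lie between 68.5% and 95.6%, on both sides of it.

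Fast-losing tiles were found on all 22 autosomes, with shares between 3.82% of eligible tiles on chromosomes 3 and 9 and 5.21% on chromosome 8. They were more frequent near chromosome ends. Within 5 Mb of the last listed CpG, or of the first where the chromosome is covered from its start, 1350 of 24030 eligible tiles were fast-losing (5.62%), against 2718 of 66860 tiles at 10 Mb or more (4.07%), and within 2 Mb the share was 6.14%. It was higher near the ends than far from them on 20 of the 22 autosomes, the exceptions being chromosomes 19 and 21. Tiles near the ends had more reads, with medians of 311 to 393 calls on day 6 in the zones within 5 Mb, against 262 far away. The share was also higher within each depth class: 8.78% against 6.13% with 100 to under 200 calls on day 6, 5.63% against 3.58% with 200 to under 500, and 3.51% against 1.91% with 500 or more.

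All eligible tiles near the ends were also somewhat lower late in the course. Within 5 Mb they had a median of 17.3% on day 7 and kept 24.0% of the day 2 level, against 18.2% and 25.2% at 10 Mb or more, while on day 2 they stood at 72.6% and 72.5%. The longest stretch with no listed CpG exceeded 2 Mb on 18 autosomes. Within 1 Mb of it, 90 of 951 eligible tiles were fast-losing (9.46%), against 4.42% farther away on these autosomes. All eligible tiles there had a day 7 median of 15.9%, against 18%.

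The fast-losing tiles lay near each other more often than eligible tiles did. Of the eligible tiles directly next to a fast-losing one, 13.1% were fast-losing themselves (188 of 1430), against 3.99% of those next to any eligible tile. A read can span a tile border, so neighbours may share reads. At 3 kb, farther than an RRBS fragment reaches, the share was 8.57% against 4.04%, and at 50 kb 5.44% against 4.52%. The fall with distance was uneven, with 5.47% at 10 kb and 8.21% at 15 kb, against 4.38% and 4.21%. The share kept from day 2 to day 7, which the rule did not use, was also lower near fast-losing tiles. Its median was 20.1% in eligible tiles next to a fast-losing tile, 21.8% at 3 kb, 22.5% at 10 kb, 23% at 20 kb and 24.1% at 50 kb, against 24.9 to 25.3% at these distances from any eligible tile. These comparisons were not matched for distance to chromosome ends, where fast-losing tiles were more frequent and all eligible tiles kept less.

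**Figure D5:**
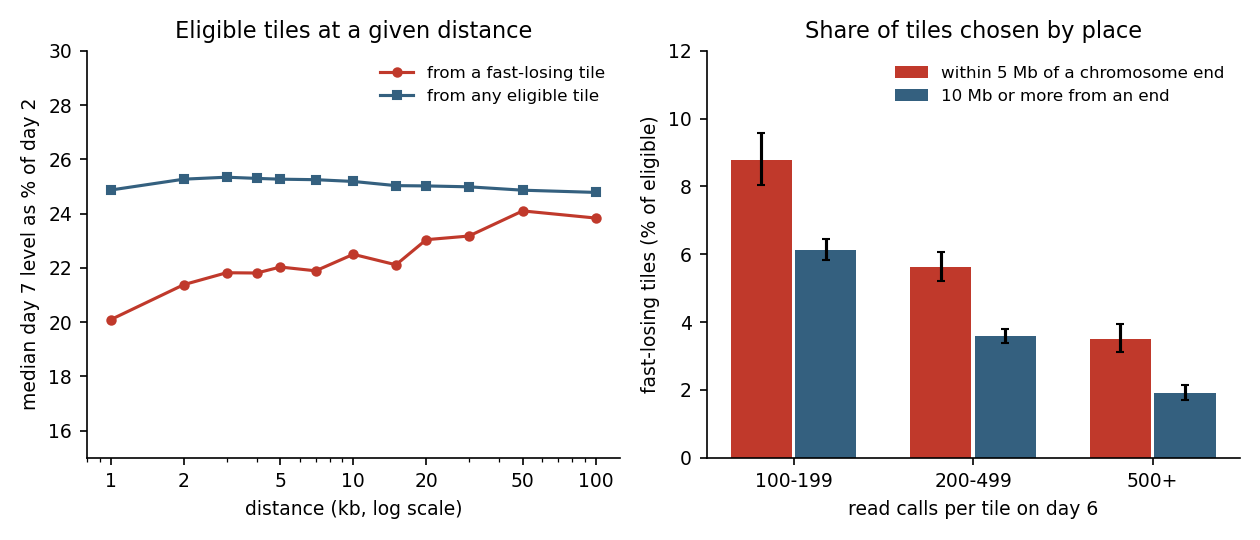
Left, median day 7 level as a percentage of day 2 (y axis, starting at 15%) in eligible tiles at a given distance (x axis, log scale) from a fast-losing tile or from any eligible tile. Right, fast-losing tiles as a percentage of eligible tiles near chromosome ends and far from them by depth class, with Wilson 95% intervals of the count. Tiles next to a fast-losing tile keep 20.1% and tiles 50 kb away 24.1%, and the share chosen is higher near the ends in all 3 depth classes.

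Only 1257 of the 4531 fast-losing tiles had an eligible tile directly beside them, and 188 of these (15%) had a fast-losing one, against 4.54% of the 31481 eligible tiles with an eligible neighbour. The other 4343 stood alone, 91 runs held 2 and 2 runs held 3. One run of 3, at chromosome 12: 38545001 to 38548000, read 12.5%, 12.4% and 12% on day 6 and 8.44%, 13.3% and 12.8% on day 7. The other, at chromosome 20: 36149001 to 36152000, read 11.7%, 3.85% and 11.4% on day 6 and 12.8%, 6.02% and 13.2% on day 7. The 6 tiles were thus all below the day 7 median of the eligible tiles. Of the 5 that had enough reads for the slope test, 0 passed it.

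In windows of 100 kb the most fast-losing tiles were 9, found at chromosome 7: 157300001 to 157400000 (9 of 16 eligible tiles) and chromosome 6: 170500001 to 170600000 (9 of 29). With their eligible tiles pooled, these windows read 68.4% and 76.0% on day 2 and 12.5% and 14.1% on day 7. Windows at chromosome 1: 3000001 to 3100000 and 3100001 to 3200000 held 8 each, of 35 eligible tiles each, and read 12.6% on day 7. The pooled day 7 level of the other eligible tiles in the window was taken where there were 3 or more of them. Over the 77539 eligible tiles with such a value its median was 18.4%. Of the 3473 fast-losing tiles with one, 67.3% had a value below that median, where 50% of these eligible tiles lie by construction. Another fast-losing tile lay in the window of 47.4% of these fast-losing tiles, against 34.8% of these eligible tiles. The part of such tiles in the 67.3% was not tested.

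Tiles with the CpG spacings that recur most often in the eligible tiles were chosen less often than the 4.46% of all eligible tiles, and than the 2.33% of those with 10 to 19 covered CpGs. In the eligible tiles the most frequent order of 3 gaps between neighbouring listed CpGs was 4, 2 and 10 bp, found in 4933 tiles, and 58 of these were fast-losing (1.18%). The next was 4, 8 and 4 bp, with 43 of 4011 (1.07%). These 2 orders were also the most frequent among the fast-losing tiles themselves. The order 4, 44 and 8 bp was found in 2385 tiles, of which 5 were fast-losing (0.210%), and the order 7, 14 and 11 bp in 1950, of which 5 were (0.256%). The tiles that carried these 4 spacings kept medians of 24.4 to 25.3% from day 2 to day 7, where all eligible tiles kept 24.9%, and had medians of 581 to 729 calls on day 6.

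Among eligible tiles with 10 or more covered CpGs, those with the most closely packed CpGs were chosen more often. Of 1214 in which 4 listed CpGs lay within a span of at most 9 bp, 106 were fast-losing (8.73%). The share was 3.19% with a shortest span of 10 to 14 bp, 1.68% with 15 to 19 bp and 2.13% with 20 to 29 bp. It was 1.52% with 30 to 59 bp and 1.85% with 60 bp or more, so there was no steady fall. Over tiles of any CpG number the fast-losing tiles were not more closely packed. Their median gap between CpGs was 22 bp, against 20 bp in all eligible tiles, and the median smallest gap 6 bp against 5 bp. The tightest class had more reads, with a median of 1090 calls on day 6, against 911, 759, 780, 697 and 686 in the wider classes. All eligible tiles of that class stood higher on day 2 and lower on day 7 than the rest, at medians of 76.2% and 15%, and kept 19.9% between these days. With 10 to 14 bp the values were 74.7%, 18.1% and 24.3%, and with 30 to 59 bp they were 72.8%, 18.1% and 25%. The spans and orders of gaps were chosen after the values were seen.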

How the data were processed

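RRBS calls of 8 libraries, 1 per day, were used. Per the submitters' processing notes the genome build is hg19. No label names the software that aligned reads and called methylation, nor any filter on reads or duplicates. The authors deposited methylated and total reads per CpG, as 2 whole numbers in 1 field, and a score that equals 1000 times the methylated share, which was not used. CpGs were joined by position and starts were changed to count from 1.

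Members and lists were chosen with earlier results of these data known. Tiles were named by rule: the lowest day 6 ratios, the smallest p, the highest day 7 levels, the most CpGs, the most reads, the longest runs and the tiles next to the limit. The 3 remaining tiles with an adjusted p below 0.05 and the windows were named after their values were seen.

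For the relative slope, methylated against unmethylated calls of days 2, 3, 4, 5 and 7 were fitted against day by quasi-binomial regression, with the logit of the pooled level of all eligible tiles as offset, in tiles with 10 or more calls in at least 4 of the 5 libraries. limma's squeezeVar shrank the dispersions toward a trend in read number, values below 1 were raised to 1, and the F test's p values were adjusted (Benjamini-Hochberg) over all tiles tested. The plan had no term for spread beyond counting error that grows relative to counting error with reads. On simulated data that version made 149 false calls, or 66.8% of its calls, so a term of 0.0010 per call, estimated from the 5 deep libraries, was added after the data were examined, which left 2 false calls, or 4.76%. The simulation ran on 95594 tiles, of which 185 were altered, and drew its reads with the same form of spread. P values rest on 1 course, with 1 library per day, and do not cover variation between courses. All other comparisons are counts and medians without a test. Python 3.11.15, numpy 2.4.6, pandas 2.3.3, R 4.3.3 and limma 3.58.1 were used. No genome or annotation of hg19 was used, so genes and sequences are not given.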

Additional observations from a re-analysis of the deposited data

Results flagged for a closer look

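The X chromosome took no part in the rule. By the same rule 108 of its 2497 eligible tiles were fast-losing (4.33%, Wilson 95% interval 3.6 to 5.20%), which lies within the range of the 22 autosomes. These 108 tiles had a day 7 median of 13.5%, against 17.8% in the eligible tiles of the X chromosome, and 87 of them (80.6%) were below the day 7 median of the autosomal eligible tiles, against 51.4% of the eligible tiles of the X chromosome.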

How the results depend on the processing

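The number of fast-losing tiles followed the rule: 447 at a limit of 0.10 and 20983 at 0.20, 1791 with 5 or more CpGs, 2549 with 200 or more reads on day 6 and 243 with a start of 90% or more. Each share that follows is set against the median of the tiles eligible under that same setting. The shares below it on day 7, on days 3 to 5 pooled and on day 2 were 88.8%, 73.1% and 75.8% at 0.10 and 80.6%, 66.1% and 65.8% at 0.20. With 20 or more reads per CpG the day 7 and day 2 shares were 89.0% and 73.0%. With 5 or more CpGs the shares on day 7 and on days 3 to 5 were 91.6% and 76.5%, and with a 90% start 91.4% and 73.3%. With 200 or more reads on day 6 the 3 shares were 91.5%, 75% and 73.5%, and with 1000 or more, chosen after seeing the data, 100%, 95.9% and 85.5%. Against the fixed median of all 101499 eligible tiles the day 7, days 3 to 5 and day 2 shares were lower in some settings: 69.1%, 56.4% and 38.3% with a 90% start (eligible tiles 23.6%, 30.9% and 16.7%), and 100%, 94.8% and 63.4% with 1000 or more reads (eligible tiles 56.2%, 40.4% and 28.1%). Tiles of 2 kb gave 69.8% on day 2. With 100 read calls drawn per tile the day 7 and day 2 shares were 77.2% and 62.8%. All shares against a setting's own median stayed above 50%.

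The 8 tiles with a steeper slope depended on the test. They became 0 with no moderation of the dispersion, where 0 of all tested were called (112 at an unadjusted p below 0.05, of 948 among all tested). They became 56 of 651 called among all tested with limma on arcsine square-root levels and 5 of 19 with 10 or more reads in all 5 libraries. Without the extra spread they became 136 of 1160, in a setting added after seeing the data that made many false calls on simulated reads. Leaving out 1 day gave 1 of 4 called among all tested without day 2 and 5 of 20 without day 5. It gave 8 of 26 without day 3 and 12 of 67 without day 4. Without day 7 it gave 0, and 0 of all tested were called (171 at an unadjusted p below 0.05, of 1890 among all tested). The cause was not tested. No paired analysis was possible because each day has 1 library. Day and library cannot be told apart.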
